A study of Homo sapiens with 8 samples.

Results

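The short arm of chromosome 5 (5p) was examined for open chromatin by ATAC-seq, in which a transposase inserts adapters into accessible DNA. The cells were of H1650, an established line from a human lung cancer. The regions are the merged peaks of all 8 deposited peak lists that lie on chromosome 5 of the hg19 build and end at or below 46.1 Mb, the position taken as the centromeric limit of the arm. There were 757 such regions, 1.62% of the 46665 regions of the whole series. They covered 366 kb and were between 200 and 1787 bp wide, with a median of 380 bp, against a median of 394 bp for the 44240 regions of the other autosomal arms. Members were chosen by position and selected on being listed by the peak caller in at least 1 library, so the number of regions describes the lists and was not tested. The last region inside the limit lay from 45695997 to 45696712 and was listed in 7 libraries, with folds from 5.84 to 16.9. The first outside lay from 49598765 to 49599298 and was listed in 3 libraries, with folds of 7.14, 6.91 and 6.13.

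All libraries came from this 1 line, with 2 libraries in each of 4 groups. Untreated cells received no siRNA. The siControl cells received a non-targeting siRNA pool, the siMena11a cells a mix of siRNAs against exon 11a of hMENA, and the siMena cells a pool against hMENA as a whole, each at 20 nmol/L. The ENAH gene encodes hMENA, an actin regulatory protein whose isoform with exon 11a is found in epithelial cells. The labels do not say whether replicates were separate cultures, so p-values may cover technical spread only. The lists of siControl, siMena11a and siMena replicate 2 stood apart, with 5231, 2832 and 1020 peaks against 14678 to 35472 in the other 5 libraries, and each result is given with them visible or left out.

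Gain of 5p is among the common arm-level changes of lung cancers. The arm carries TERT, the catalytic subunit of telomerase, which is silent in most adult cells and switched on in most tumours. Other 5p genes studied in cancer are SKP2, which marks the cell cycle inhibitor p27 for degradation, RICTOR, a subunit of the mTORC2 kinase complex, and GOLPH3, a Golgi protein. In a tumour genome, a stretch present in extra copies yields more tags both in open sites and between them, so that tag background can be read beside peak height. Copy number itself was not measured in these libraries.

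From the telomere inward, RefSeq (GRCh38.p14) orders the 20 listed 5p genes as SDHA, AHRR, TERT, CLPTM1L, SLC6A3, LPCAT1, TRIO, CDH6, DROSHA, GOLPH3, AMACR, SKP2, NIPBL, LIFR, OSMR, RICTOR, DAB2, PTGER4, GHR and FGF10. An hg19 annotation or genome was not used here, so regions were not assigned to genes, exons or introns. TERT alone was placed, through an interval of 1.25 to 1.30 Mb. The 250 bases before the TERT start are shown because 1 region lies at the upper end of that interval and TERT is read from the minus strand, from high to low coordinates. The sequence is from RefSeq (GRCh38.p14, chromosome 5, minus strand, 5′ to 3′). Capitals mark GGGCGG or its reverse complement CCGCCC, the core of a GC box, and CACGTG, an E-box, both searched on both strands.

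TERT: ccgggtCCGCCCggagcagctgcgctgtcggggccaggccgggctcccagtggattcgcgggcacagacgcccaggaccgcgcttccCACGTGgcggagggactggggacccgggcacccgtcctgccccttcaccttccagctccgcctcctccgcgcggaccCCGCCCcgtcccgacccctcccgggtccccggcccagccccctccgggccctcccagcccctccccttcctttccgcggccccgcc

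The window held 2 matches to GGGCGG, starting at bases 7 and 165, and 1 match to CACGTG, starting at base 88. Of all 35116 RefSeq promoters of the same length, 42.6% held GGGCGG and 6.34% held CACGTG on either strand. Its GC content was 78.8%, against a median of 58% over all promoters. A match describes letters only, and the place of this sequence within the hg19 region was not determined.

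Shorter lists mostly held fewer peaks on 5p, though not in proportion. The longest list, siMena11a replicate 1 with 35472 peaks, held fewer than untreated replicate 1 with 34782. The replicate 1 libraries of untreated, siControl, siMena11a and siMena cells listed 571, 459, 551 and 250 peaks on 5p. The libraries of replicate 2 listed 362, 157, 107 and 43. This was 12.4, 9.96, 11.95 and 5.42 peaks per Mb for replicate 1. For replicate 2 it was 7.85, 3.41, 2.32 and 0.933. Over all 39 autosomal arms the density was 12.4, 9.73, 12.6 and 5.23 peaks per Mb for replicate 1 and 7.97, 1.84, 0.981 and 0.320 for replicate 2. The density on 5p was thus close to the autosomal one in the 5 long lists and above it in the 3 short ones. With the 8 lists merged, 5p held 16.4 regions per Mb and stood at rank 24 of the 39 arms, beside 16.6 for 5q, 21.5 for 7p and 26.5 for 20q.

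As a share of autosomal peaks, 5p held 1.701% (95% exact Clopper-Pearson interval 1.57 to 1.85%) in untreated replicate 1, 1.74% (1.58 to 1.90%) in siControl replicate 1, 1.61% (1.48 to 1.75%) in siMena11a replicate 1 and 1.76% (1.55 to 1.99%) in siMena replicate 1. In replicate 2 the shares were 1.67% (1.51 to 1.85%), 3.15% (2.68 to 3.67%), 4.02% (3.31 to 4.84%) and 4.96% (3.61 to 6.62%). The intervals cover counting error over peaks only. The 3 short lists lay above the other 5 libraries without overlap. Averaged over those 3, the share was 2.38 times that of the other 5 libraries, the highest of the 39 arms, followed by 7p at 1.71 and 8q at 1.67, whereas 20q was at 0.730. This split by list length was chosen after the values were seen and has no test.

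At equal list length the long and the short lists overlapped. Each list was cut to its 1000 peaks with the highest −log10 q, and the share was taken over the autosomal peaks among them. Peaks off the autosomal arms were not counted, and their part differs between lists. In the full lists, 867 of 1020 peaks of siMena replicate 2 were autosomal, against 33568 of 34782 in untreated replicate 1. On this measure 5p held 3.85, 4.89, 4.99 and 3.81% in untreated, siControl, siMena11a and siMena replicate 1. In replicate 2 it held 4.51, 4.84, 5.09 and 4.94%. The 5 long lists thus lay between 3.81 and 4.99%, and the 3 short ones between 4.84 and 5.09%. In all 8 libraries the share among the autosomal peaks of the 1000 strongest lay above the 1.61 to 1.76% of the long full lists.

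The tag background around 5p peaks was higher than on the other autosomal arms in every library. Local background is the expected number of tags at a summit, recovered here from the fold and −log10 p of the peak caller. It is given relative to the genome-wide background of the same library, and arms are compared within each library. Relative values still differed between libraries at the same region. From 41903795 to 41904776 they ran from 1.92 in siMena replicate 2 to 11.3 in untreated replicate 1. The genome-wide background ranged from 0.538 to 0.935 tags per position over the replicate 1 libraries and from 1.09 to 2.88 over the others. The median relative background on 5p was 3.23, 2.95, 3.04 and 3.20 in replicate 1 of untreated, siControl, siMena11a and siMena cells, against 2.303, 2.12, 2.202 and 2.12 on the other arms. In replicate 2 it was 2.90, 2.28, 2.295 and 2.38, against 1.95, 1.403, 1.407 and 1.47. No library's value for the other arms reached its value for 5p.

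The ratio of 5p to the other arms ran from 1.38 (siMena11a replicate 1) to 1.63 (siMena11a replicate 2), with a mean log2 ratio of 0.59 ± 0.10 (SD, n = 8). It was above 1 in 8 of 8 libraries (two-sided exact sign-flip permutation p = 0.00781, the smallest that 8 libraries can give, and 0.0117 after Benjamini-Hochberg adjustment over 3 measures). The libraries share 1 genome, so this test covers the spread between libraries and not other cells of the line. The arm and the test were also chosen with earlier results of these data known. The p therefore does not measure how unusual 5p is, here or for pileup below. Of the 39 arms, 9 (23.1%) were above their other arms in all 8 libraries, namely 20q, 16q, 5p, 19q, 7p, 16p, 8q, 11q and 2p. The arms 1p, 2q, 3p, 3q, 4q, 6p, 6q, 11p, 12q, 13q, 15q and 18q were below in all 8. Any arm above or below in all 8 libraries reaches that smallest p, so neither it nor the direction was particular to 5p. By mean log2 ratio 5p stood at rank 3, after 20q and 19q, and in the single libraries it stood between rank 2 and rank 5. GC content, mappability and copy number differ between arms, and their part in these values was not tested. Without the 3 short replicate 2 lists the mean log2 ratio was 0.52 (adjusted exact sign-flip permutation p = 0.0938), where 5 libraries allow no unadjusted p below 0.0625.

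**Figure D1:**
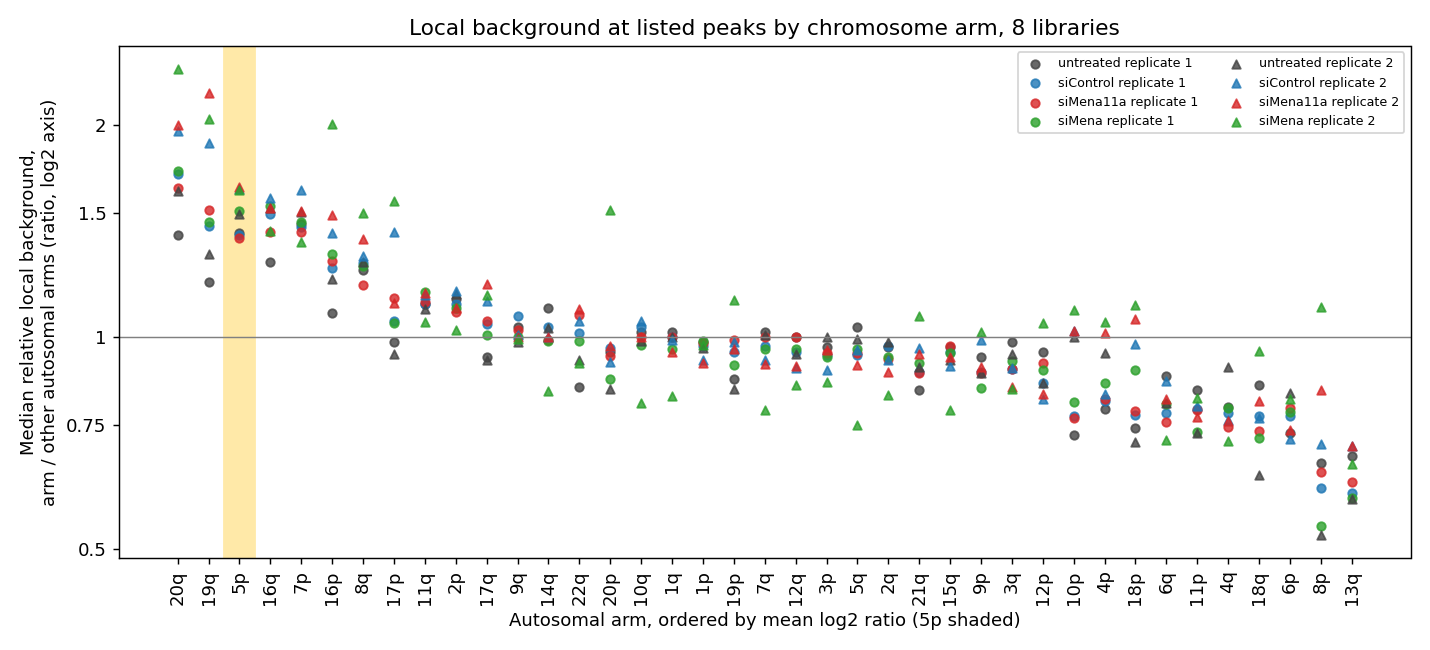
Ratio of the median relative local background on each of the 39 autosomal arms to that on all other autosomal arms (log2 axis), 1 point per library, circles for replicate 1 and triangles for replicate 2. The 8 points of 5p (shaded) lie between 1.38 and 1.63, and the arm is at rank 3 by the mean.

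The difference held at the lower end of the distribution as well as at its middle. The 10th percentile of relative background on 5p was 1.38 to 1.56 times that of the other arms, depending on the library. The lower quartile was 2.15 on 5p against 1.52 on the other arms in untreated replicate 1, and 1.94 against 1.14 in siMena replicate 2. Peaks whose background sat at the genome-wide floor were nearly absent from 5p, with 0 to 3 peaks per library. On the other arms they made up 4.51 to 14.2% of peaks. Restricted to peaks with no other peak of the list within 10 kb, the mean log2 ratio was 0.56, and among the regions listed in all 8 libraries it was 0.34, which is the smallest value over the peak sets tried.

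Summits on 5p also held more tags, while the fold did not separate 5p from the other arms. The median summit pileup was 18, 24, 23 and 18 tags in replicate 1 of untreated, siControl, siMena11a and siMena cells, against 15, 18, 19 and 14 tags on the other arms. For replicate 2 these were 24, 28, 28 and 34 tags against 18, 21, 21 and 24. The ratio ran from 1.20 to 1.42, with a mean log2 ratio of 0.38 ± 0.08 (SD, n = 8; higher in 8 of 8 libraries, exact sign-flip permutation p = 0.00781, adjusted p = 0.0117). On this measure 7 of the 39 arms (17.9%) were above the others in all 8 libraries, and 5p stood at rank 2 after 20q. The arms 1p, 6p, 6q, 13q, 18p and 21q were below in all 8. Pileup and background were recovered from the same fold and −log10 p, so this test is not independent of that on background. A listed peak must also pass the q threshold against its local background, which ties pileup to background among listed peaks.

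A peak's fold, as the authors deposited it, divides pileup by local background after adding 1 to each. The mean log2 ratio was 0.38 for pileup and 0.59 for background. Near-equal folds thus do not show that both rose in proportion, and the part of the added 1 was not tested. Its median on 5p was 6.93, 6.40, 6.70 and 6.05 for replicate 1 and 6.11, 4.77, 4.22 and 3.90 for replicate 2. On the other arms it was 6.91, 6.40, 6.57 and 6.03 for replicate 1 and 6.15, 4.93, 4.69 and 4.39 for replicate 2. It was higher on 5p in 4 libraries, all replicate 1, and lower in the other 4, with a mean log2 ratio of -0.04 ± 0.08 (SD, n = 8; exact sign-flip permutation p = 0.188, adjusted p = 0.188). The mean was 0.01 in replicate 1 and -0.09 in replicate 2. With all summits counted, in place of the strongest of each interval, the mean of -0.08 passed the test (adjusted exact sign-flip permutation p = 0.00781), as it did in 3 other settings. Without the first 5 Mb of the arm it was 0.00328 (adjusted p = 0.844, same permutation), and without the 3 short lists 0.00542 (adjusted p = 0.562). Of the 39 arms, 3 (7.69%) had a higher fold in all 8 libraries, and 5p was not among them.

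**Figure D2:**
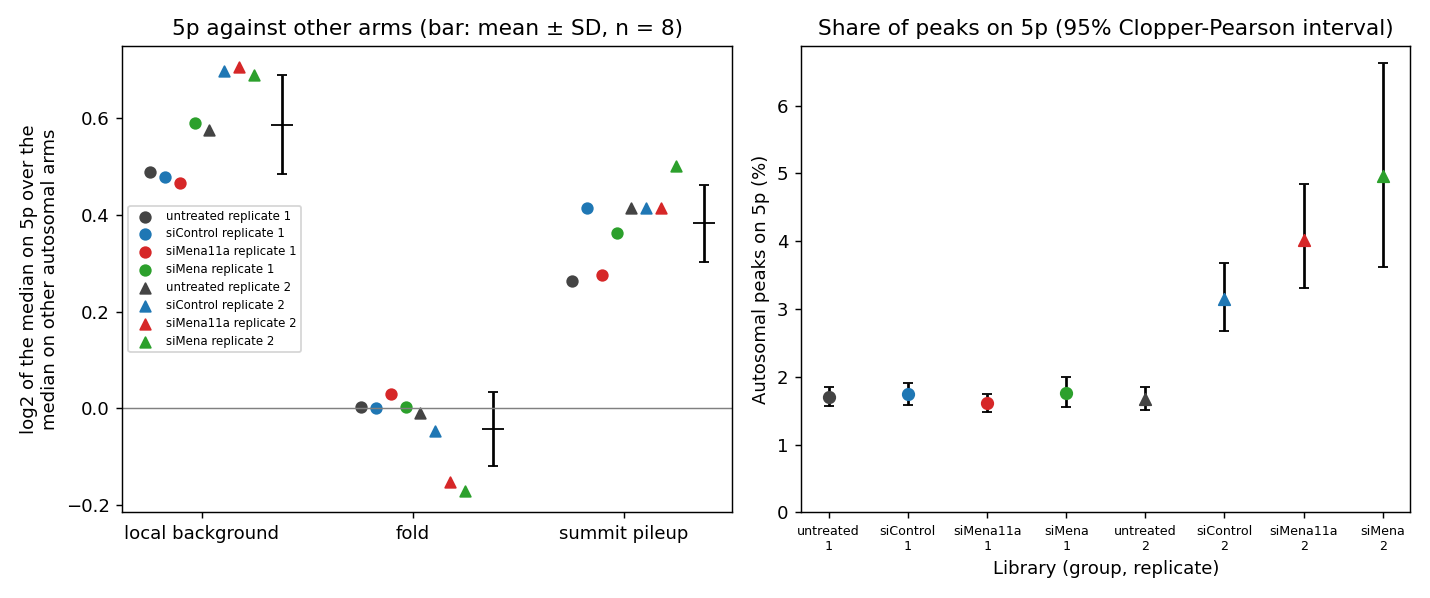
Left, log2 of the median on 5p over the median on the other autosomal arms for local background, fold and summit pileup, 1 point per library, with the mean ± SD of the 8 libraries as a bar. Right, percent of autosomal peaks on 5p in each full list with its 95% Clopper-Pearson interval; background and pileup lie above 0 in all 8 libraries, and the share is 1.61 to 1.76% in 5 lists and 3.15 to 4.96% in the 3 short ones.

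Along the arm, both the regions and the background were uneven. The 46 whole windows of 1 Mb held 3 to 37 regions, with a median of 15. The windows with the most regions were 1 to 2 Mb and 14 to 15 Mb, with 37 regions each, and 0 to 1 Mb with 35. The window from 1 to 2 Mb, which holds the TERT interval, had no region listed in all 8 libraries, and the window from 14 to 15 Mb had 2. The longest stretches without a region were 0.701 Mb (from 43631756 to 44332550), 0.660 Mb (from 15500808 to 16160888) and 0.626 Mb (from 39756441 to 40382165). The median distance between neighbouring regions was 25841.5 bp, and 213 of 756 neighbours were under 10 kb apart.

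The background was highest toward the telomere. In the first 5 Mb, the median background over the 8 libraries was 2.12 times that of the other autosomal arms, with a range of 1.80 to 2.84. The windows of 1 Mb with the highest values were 2 to 3 Mb (2.91 times), 6 to 7 Mb (2.51 times, from the 7 libraries with a peak there) and 1 to 2 Mb (2.41 times). From 5 to 15 Mb and from 30 to 45 Mb the 5 Mb windows lay between 1.31 and 1.64, with all 8 libraries above 1. From 20 to 25 Mb the value was 1.05, with 5 of 8 libraries above 1, and from 25 to 30 Mb it was 0.849, with 3 of 8 above 1. Those 2 windows also held the fewest regions of the whole 5 Mb windows, 51 and 43, against 75 to 111 in the others. The caller's background includes tags of open sites nearby, and the part of region density in this dip was not tested.

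From the window at 40 to 45 Mb on 5p to the first windows of 5q, the values fell in the 7 libraries with a value in each. The first 5 Mb windows of 5q, from 50 to 55 and from 55 to 60 Mb, were at 0.780 and 0.677, with none of the 7 libraries that had a value above 1, against 1.64 in the window from 40 to 45 Mb on 5p. The stretch of 5p nearest the centromere, from 45 Mb, held only 3 regions. It was at 1.13 (range 0.566 to 1.30), with 4 of 7 libraries above 1. In untreated replicate 1 (0.710 against 0.927) and siControl replicate 1 (0.566 against 0.717) it lay below the first window of 5q. Set against 5q alone, the median background of 5p was 1.36, 1.47, 1.46 and 1.55 times as high in replicate 1 of untreated, siControl, siMena11a and siMena cells and 1.505, 1.66, 1.75 and 2.05 times in replicate 2. For 5q, the ratio to the other autosomal arms was 0.75 to 1.03.

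The rise toward the end of the arm was compared with the other short arms. The first 5 Mb of 5p had 1.65 times the background of the rest of the arm (median of 8 libraries, range 1.33 to 1.86), the highest of the 17 autosomal short arms examined, followed by 1p at 1.47 and 4p at 1.35. On 1p and 6p, too, all 8 libraries were above 1. The end of 5q was also high relative to the other autosomal arms. Its windows from 175 Mb and from 180 Mb were at 1.31 and 1.53, with 8 of 8 libraries above 1 in each. The window from 180 Mb exceeded the first 5 Mb of 5p in untreated replicate 1 (2.48 against 1.80) and siMena11a replicate 1 (2.46 against 2.11). In the other libraries it was lower. The ends of other long arms were not compared. Without its first 5 Mb, 5p had a mean log2 background ratio of 0.48 to the other arms over the 8 libraries (adjusted exact sign-flip permutation p = 0.0117).

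**Figure D3:**
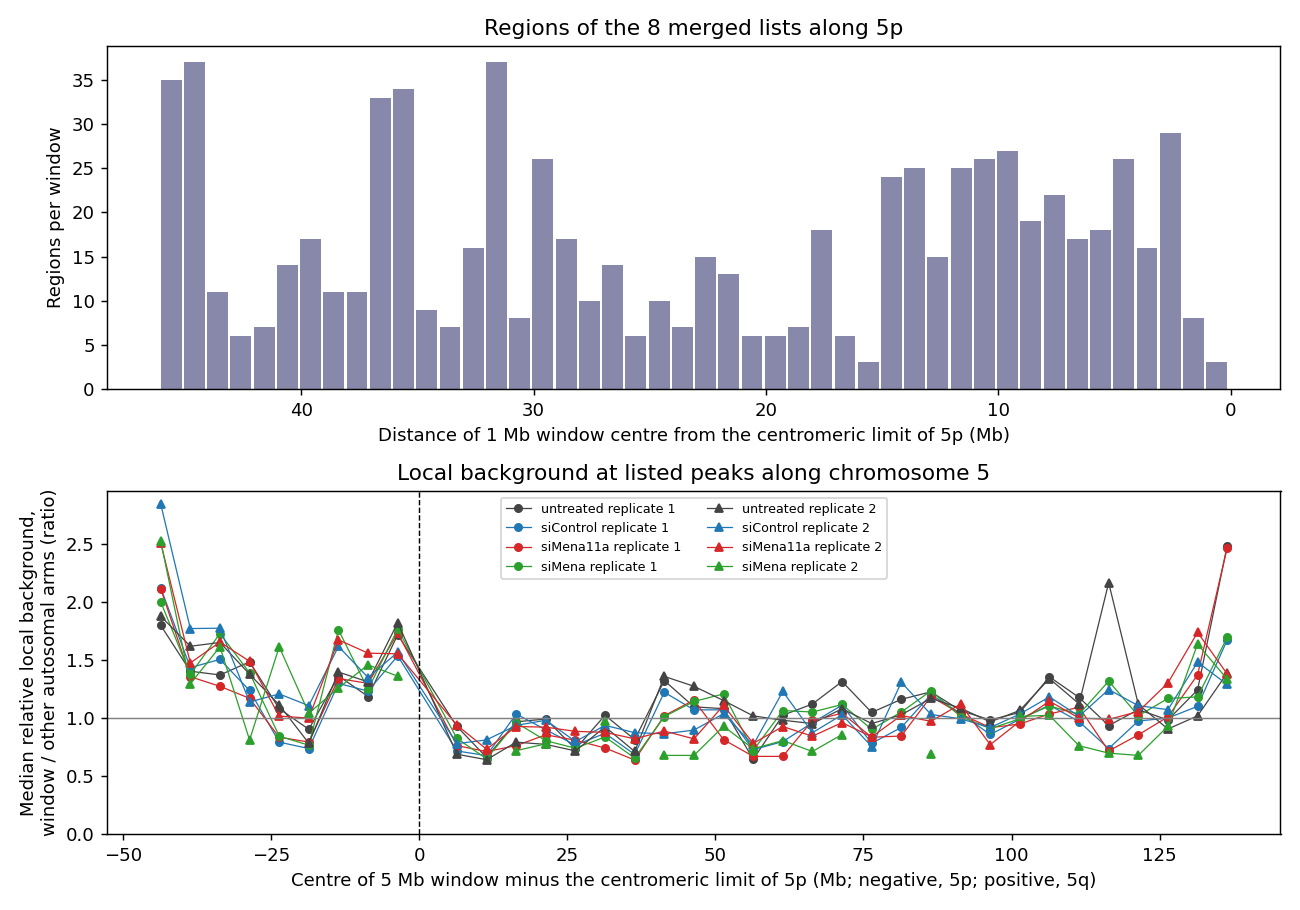
Top, number of regions in each whole 1 Mb window of 5p, by distance from the centromeric limit (telomere at left). Bottom, median relative local background in 5 Mb windows of chromosome 5 over the median of the other autosomal arms, 1 line per library; the window at 45 Mb, with 3 regions, is not drawn. The telomeric window of 5p lies at 1.80 to 2.84 in the 8 libraries, and the 5q windows next to the centromere lie below 1.

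The end of the arm held a larger part of the short lists. Of the 5p peaks, the first 5 Mb held 12.3, 13.1, 12.5 and 13.6% in replicate 1 of untreated, siControl, siMena11a and siMena cells. In replicate 2 they held 10.2, 15.9, 21.5 and 44.2%. For siMena replicate 2 this was 19 of 43 peaks, with a 95% exact Clopper-Pearson interval of 29.1 to 60.1%, and for siMena replicate 1 the interval was 9.61 to 18.5%. These intervals cover counting error over the peaks of 1 library only, and the difference between libraries was not tested. Of the 37 regions of 5p listed in all 3 transfected replicate 2 libraries, 23 were listed in all 8 libraries. Of the other 14, 11 lay in the first 5 Mb, which held 96 of all 757 regions of 5p. Neither untreated library listed 8 of the 37 regions (21.6%), of which 7 lay in the first 5 Mb. On the other autosomal arms this held for 97 of 630 such regions (15.4%), and the difference was not tested.

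At the TERT interval, 3 regions were listed, and none in more than 5 libraries. The upper one, from 1294902 to 1295388, was listed in untreated replicate 1 with a fold of 5.32 and in siMena11a replicate 1 with a fold of 3.81, and in no other library. Its authors' scores, 10 times −log10 q, were 62 and 43. The lower one, from 1289478 to 1289902, had folds of 3.48 in siControl replicate 1, 3.44 in siMena replicate 1, and 2.87, 2.67 and 3.13 in replicate 2 of siControl, siMena11a and siMena cells. Its scores were 40 and 33 in siControl and siMena replicate 1, and 65, 48 and 88 in those 3 replicate 2 libraries. It was in neither untreated list nor in siMena11a replicate 1, and the reason was not tested. The middle one, from 1290334 to 1291182, was listed in the 3 transfected replicate 2 libraries alone, with folds of 3.09, 3.44 and 2.77.

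The lower and the middle region had nearly the same background. Relative to the genome-wide background, the local background was 4.77 to 6.79 in the libraries that listed the lower region and 5.54 to 6.56 for the middle one. For the upper region it was 3.38 and 3.93, in libraries that listed neither of the others, so that region and library cannot be told apart. In siControl, siMena11a and siMena replicate 2 the background of the lower region was also the highest of any 5p peak of the list, at 6.79, 5.93 and 5.77. The lower region, with 4 others of 5p, was among the regions gained in siControl against untreated cells.

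**Figure D4:**
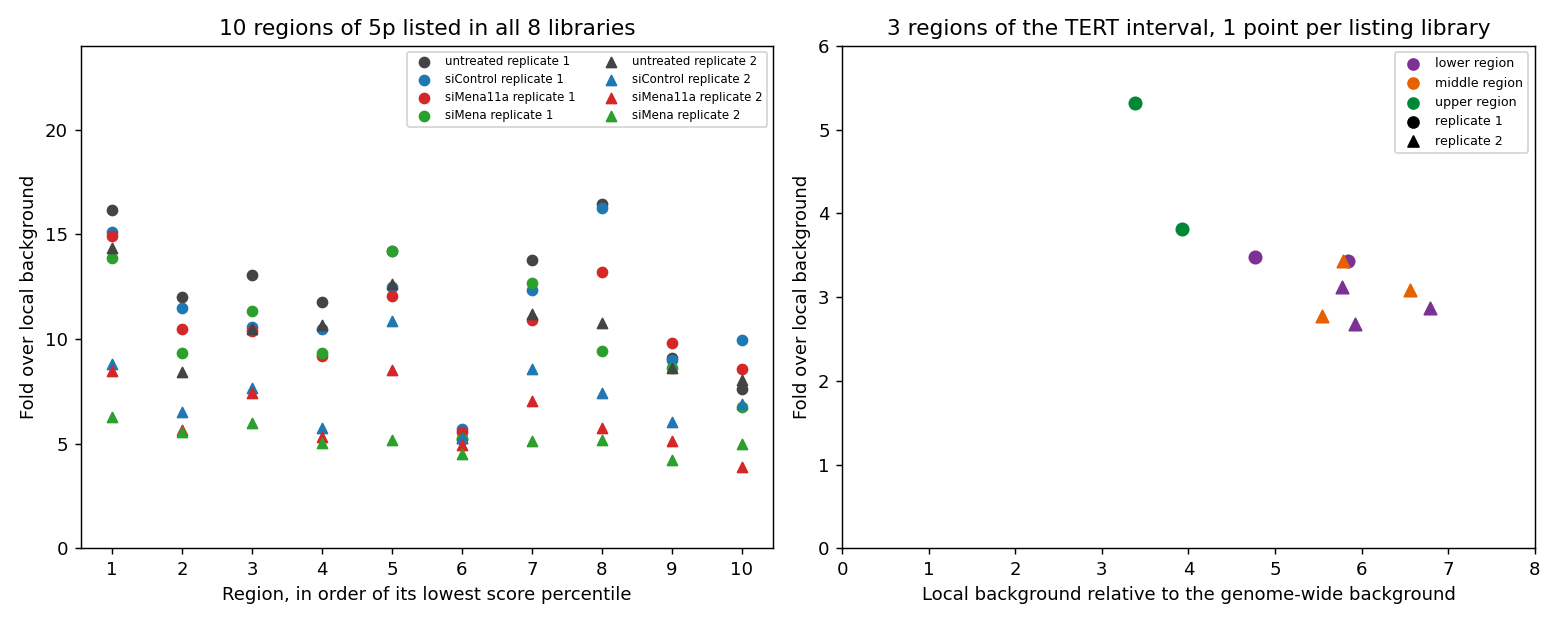
Left, fold over local background of the 10 named 5p regions listed in all 8 libraries, numbered in order of their lowest score percentile; at every region at least 1 of the 3 transfected replicate 2 libraries (triangles) is lowest. Right, fold against relative local background for the 3 regions of the TERT interval, 1 point per library that lists the region; the upper region, listed in 2 replicate 1 libraries, has the lowest background.

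Regions shared by all libraries made up a larger part of 5p than of the other arms. All 8 libraries listed 23 of the 757 regions (3.04%), against 465 of 44240 (1.05%) elsewhere on the autosomes, and 50 (6.61%) against 1398 (3.16%) were listed in 7. Single libraries accounted for 220 (29.1%) on 5p and 31.2% elsewhere. The regions listed in 5 libraries went the other way, with 77 (10.2%) against 15.4%. A region can be in all 8 lists only if the short lists hold it, and 5p made up a larger share of those lists. Neither the difference nor the part of the short lists in it was tested. The median width was 232.5 bp for 5p regions listed once and 972 bp for those listed in all 8.

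Among the regions common to all libraries, the one highest by the naming rule (its lowest percentile of score over the lists) lay from 41903795 to 41904776. Its fold was 16.1, 15.1, 14.9 and 13.9 in replicate 1 of untreated, siControl, siMena11a and siMena cells and 14.3, 8.81, 8.47 and 6.29 in replicate 2. The transfected replicate 2 libraries were the lowest, and untreated replicate 2 lay with the replicate 1 libraries. A region from 8457362 to 8458333 had folds of 14.2, 12.5, 12.1 and 14.2 in replicate 1 and 12.6, 10.8, 8.50 and 5.17 in replicate 2, with the same 3 libraries lowest. A region from 14268312 to 14268925 had folds of 7.62, 9.94, 8.57 and 6.76 in replicate 1 and 8.02, 6.88, 3.90 and 4.97 in replicate 2. In it siControl replicate 2 lay above siMena replicate 1, so groups and replicates overlapped.

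The region nearest the telomere, from 10039 to 11804, behaved differently. Its fold was 5.23, 5.70, 5.57 and 5.22 for replicate 1 and 5.26, 5.29, 4.92 and 4.49 for replicate 2, so the libraries differed little. Relative to the genome-wide value, its local background stood at 14.5, 7.38, 10.9 and 8.14 for the replicate 1 libraries and at 7.10, 5.07, 4.88 and 3.52 for the others. The other 6 named regions common to all libraries began at 43313128, 8620931, 5422068, 44808696, 19322828 and 33440455. Their folds lay between 4.22 and 16.5, with the lowest of each in siMena replicate 2. Over the 23 common regions, the median relative background was 1.16 to 1.49 times that at the 465 common regions of the other arms, with all 8 libraries above 1, and the median fold was 4.49 to 11.4 against 4.58 to 11.7.

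The groups were then compared for 5p. First, silencing of the 11a isoform was set against control siRNA. A region was gained if both libraries of the first group and neither of the second listed it, and lost in the opposite case. On 5p 2 regions were gained and 3 lost, 0.264% and 0.396% of the 757, beside 0.0279% and 0.0557% of all regions, and 76 were listed in all 4 libraries. The gained region from 37533914 to 37534374 had folds of 7.02 and 3.96 in the siMena11a libraries and of 5.95 and 7.84 in the untreated ones. The gained region from 25569109 to 25569708 had folds of 7.52 and 3.86, and 9.16 in untreated replicate 1. The lost regions, from 10725042, from 2146745 and from 33068907, had folds of 3.92, 3.46 and 4.21 in siControl replicate 1 and 3.03, 3.21 and 3.69 in replicate 2. The last of them had its highest fold, 7.56, in untreated replicate 2. Taken by replicate, 150 regions were gained and 55 lost between the 2 replicate 1 libraries, and 16 and 63 between those of replicate 2. These were 19.8% and 7.27% of the 5p regions in replicate 1, beside 24.2% and 6.25% of all regions, and 2.11% and 8.32% in replicate 2, beside 1.03% and 5.97%. Leaving out siMena11a replicate 1 gave 4 gained and 51 lost regions, and leaving out its replicate 2 gave 143 and 8. With siControl replicate 1 left out there were 13 and 11, and with its replicate 2 left out 5 and 49. For counts with a library left out, here and in the next comparisons, the share over all regions was not taken. They show how far the counts moved and are not a result about 5p.

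Silencing of hMENA as a whole left 0 regions gained and 16 lost on 5p against control siRNA. The lost regions were 2.11% of the 757, beside 1.03% of all regions, and for gained regions the share of all regions was 0.00214%. In all 4 libraries 29 regions were listed, and these were not tested one by one. The region from 10595566 to 10596447 had folds of 8.54 and 4.17 in the siControl libraries and 9.94, 9.0 and 5.93 in untreated replicate 1, siMena11a replicate 1 and untreated replicate 2. The region from 9653681 to 9654261 had folds of 7.67 and 5.70 in the siControl libraries, 6.72 and 7.58 in the untreated ones and 10.9 in siMena11a replicate 1. The others named, from 33049337, 38464153 and 10267456, had folds of 5.13 to 7.60 in siControl replicate 1 and of 3.89 to 4.94 in replicate 2. Of the 16, untreated replicates 1 and 2 listed 13 and 14, and siMena11a replicates 1 and 2 listed 13 and 4. The siMena list had fewer peaks than the siControl list in each replicate, and the part of list length in the lost regions was not tested. In lists of equal length 2 regions were gained and 5 lost, with no share over all regions taken. Between the replicate 1 libraries alone 16 regions were gained and 221 lost, and between the replicate 2 libraries 4 and 113. The lost regions were 29.2% of 5p in replicate 1, near the 28.2% of all regions, and 14.9% in replicate 2, beside 9.06%. The gained ones were 2.11% beside 1.81% of all regions in replicate 1 and 0.528% beside 0.326% in replicate 2. Leaving out siMena replicate 1 gave 3 gained and 99 lost regions, and leaving out its replicate 2 gave 14 and 20. With siControl replicate 1 left out there were 1 and 30, and with its replicate 2 left out 2 and 217.

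Control siRNA was set against untreated cells to examine transfection itself. On 5p 5 regions were gained and 24 lost, 0.661% and 3.17% of the 757, beside 0.12% and 3.65% of all regions, so the lost share was near the background. Of the 5 gained regions, 4 lay in the first 5 Mb, which held 96 of the 757 regions of 5p. With scores of at least 50, 2 regions were gained. The place of the gained regions was not tested. The region from 628484 to 628968 had folds of 4.38 in siControl replicate 1 and 3.98, 3.72 and 3.80 in replicate 2 of siControl, siMena11a and siMena cells. The region from 1025784 to 1026316 had folds of 3.44, 3.04, 2.95 and 3.05 in the same libraries. With the lower region of the TERT interval, these 2 were listed in all 3 transfected replicate 2 libraries. The other gained regions, from 10725042 and from 2146745, were listed in the siControl libraries alone. They are also 2 of the 3 regions lost with siMena11a, a comparison that shares the siControl libraries. Their relative background ran from 2.48 to 4.24, and that of the 3 others from 3.57 to 6.79 over all libraries that listed them.

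Among the 24 lost regions, that from 35129975 to 35130650 had folds of 8.01 and 6.63 in the untreated libraries and 6.78 in siMena11a replicate 1. The others named, from 33272422, 44809786, 47396 and 9348816, had folds of 4.62 to 9.75 in untreated replicate 1 and 4.37 to 7.58 in replicate 2. Of the 24, siMena11a replicate 1 listed 16, whereas the other transfected libraries listed few: siMena replicate 1 had 2 of them, siMena11a replicate 2 had 1 and siMena replicate 2 had 0. In replicate 1 alone siControl gained 55 regions and lost 167, and in replicate 2 alone it gained 25 and lost 223. The lost regions were 22.1% of 5p beside 22.7% of all regions in replicate 1, and 29.5% beside 36.6% in replicate 2. The gained ones were 7.27% beside 6.93%, and 3.30% beside 1.07%. Leaving out siControl replicate 1 gave 17 gained and 145 lost regions, and leaving out its replicate 2 gave 44 and 28. With untreated replicate 1 left out there were 12 and 95, and with its replicate 2 left out 9 and 162.

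The isoform-specific knockdown was also set against the overall one. On 5p 8 regions were gained and 0 lost, 1.06% of the 757 gained beside 0.24% of all regions, and the lost share of all regions was 0.00643%. The region from 35136400 to 35136875 had folds of 10.1 and 3.94 in the siMena11a libraries and 12.8 and 9.22 in the untreated and 8.04 and 4.47 in the siControl libraries. The region from 1570041 to 1570481 had folds of 4.13 and 4.78 in the siMena11a libraries, the higher one in replicate 2, and 3.74 in siControl replicate 2. Those from 37533914 and from 25569109 were also gained against control siRNA, and the comparisons share the siMena11a libraries. The region from 12574510 to 12575195 had folds of 5.86 and 3.76 in the siMena11a libraries, 6.20 and 6.08 in the untreated ones and 8.16 in siControl replicate 1. The replicate 1 libraries alone gave 312 gained and 12 lost regions, and the replicate 2 libraries 66 and 4. The gained regions were 41.2% of 5p in replicate 1, below the 45.5% of all regions, and 8.72% in replicate 2, above 4.18%. The lost ones were 1.59% beside 1.07%, and 0.528% beside 0.39%. Leaving out siMena11a replicate 1 gave 10 gained and 2 lost regions, and leaving out its replicate 2 gave 310 and 4. With siMena replicate 1 left out there were 64 and 2, and with its replicate 2 left out 10 and 8.

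No difference in the share of peaks on 5p passed a test between groups. The share was 1.69 ± 0.0186% (SD, n = 2) in untreated, 2.44 ± 0.996% for siControl, 2.82 ± 1.71% for siMena11a and 3.36 ± 2.26% for siMena. Tests were two-sided exact permutations. From siControl to siMena11a the share differed by 0.372 percentage points (exact p = 1.0), and siMena exceeded siControl by 0.917 (exact p = 0.667). It was 0.756 for siControl minus untreated (exact p = 0.3333) and -0.546 for siMena11a minus siMena (exact p = 0.667). The smallest p that groups of 2 allow is 0.3333, and adjusted over the 4 comparisons the lowest was 0.889. Within replicate 1 the differences were -0.131, 0.0235, 0.0380 and -0.154, and within replicate 2 they were 0.874, 1.81, 1.47 and -0.937, in the same order. The first difference turned to -0.835 without siMena11a replicate 2 and to -0.333 without siControl replicate 1, and the second to -0.681 without siMena replicate 2. The third was 0.0512 without siControl replicate 2, and the last turned to 0.661 without siMena11a replicate 1 and to 1.05 without siMena replicate 2.

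Between replicates of a group, the 5p regions of the shorter list were mostly in the longer one. The untreated libraries shared 265 regions, 47.7% of replicate 1 and 75.7% of replicate 2. For siControl these were 132 regions, 29.7% and 86.8%, for siMena11a 92 regions, 17.1% and 87.6%, and for siMena 32 regions, 13.4% and 74.4%. Peaks with more than 1 summit were also more frequent on 5p in each list, from 13.2 to 25.2% of its peaks, against 9.44 to 20.0% on the other arms.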

How the data were processed

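ATAC-seq peak lists of 8 H1650 libraries were used, 1 list per library. Per the submitters' processing notes, MACS2 2.2.5, Bowtie2 2.3.4.2, FastQC 0.11.5 and SAMtools 1.7 were used with build hg19; trimming, duplicate removal and shifting for the transposase are not given in the sources used here. The deposited score is 10 times −log10 q, rounded down. The deposited fold is a ratio of summit pileup to local background, each plus 1. The authors' −log10 p and −log10 q are the peak caller's, and lists end at a q of 0.01.

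Pileup and background were solved from fold and −log10 p within 0.001 for 100.0% of rows, a step checked on simulated data. The smallest background of a list was its genome-wide background, which served as depth since the files give no read totals. Each distinct interval counted once, by its strongest summit. Peaks that overlapped or touched were merged, and an overlap of 1 bp or more made a region open in a library. Arms were bounded by hg19 centromeric bands. 5p was compared with 38 other autosomal arms by exact sign flips over libraries, and groups by exact permutation, with Benjamini-Hochberg adjustment. Regions were not tested one by one: a list gives no value where a region is not listed, and those listed in all libraries compared were described only. Named were the 10 regions open in all 8 libraries with the highest lowest-score percentile, up to 5 gained and 5 lost per comparison by the same measure, regions of the TERT interval, those next to the arm limit, and the extreme windows and gaps. The members, lists and tests were chosen with earlier results of these data known. Alternatives were the mean, all summits, scores of at least 50, the 1000 strongest peaks, isolated peaks, bp, 50% cover, lists of equal length, the replicate block and each library left out. All 20 gene symbols matched RefSeq. Computations used SciPy 1.17.1, pandas 2.3.3 and numpy 2.4.6 in Python 3.11.15, with statsmodels 0.14.6 and matplotlib 3.10.9.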

Additional observations from a re-analysis of the deposited data

How the results depend on the processing

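The higher background and pileup of 5p kept their direction in all settings tried and stayed past the threshold in all but those with 5 or fewer libraries. With the replicate block, the mean log2 ratio of background was 0.51 over replicate 1 and 0.67 over replicate 2, and that of pileup 0.33 and 0.44 (adjusted exact permutation p = 0.125 each, the smallest that 4 libraries allow). Without the 3 transfected replicate 2 libraries, a setting chosen after seeing the data, they were 0.52 and 0.35. The fold ratio of -0.04 passed the threshold with all summits (-0.0811), with scores of at least 50 (-0.0567), in regions open in all 8 libraries (-0.0605) and against 5q alone (-0.11). It was positive in replicate 1 alone (0.00909), without the first 5 Mb (0.00328, also chosen after seeing the data) and without those 3 libraries (0.00542). The labels do not say what the replicate numbers share. The difference in listing between replicates 1 and 2 of a group correlated with that of the other group at 0.20 to 0.40 over the 5p regions, from 2 pairs, and the 3 short lists all carry number 2. With the replicate block, the share differences of 0.372, 0.917, 0.756 and -0.546 points, in the order of comparisons used in the text, had exact permutation p = 1.0, 0.5, 0.5 and 0.5. With the 1000 strongest peaks, the siMena minus siControl difference was -0.497 and the siMena11a minus siMena difference 0.674. Leaving out 1 library gave -0.835 to 1.58 for siMena11a minus siControl, -0.681 to 2.52 for siMena minus siControl, 0.0512 to 1.46 for siControl minus untreated and -2.14 to 1.05 for siMena11a minus siMena. Counts of gained and lost regions rested on the settings. For the stricter score, lists of equal length and 1 library left out, only 5p regions were counted. Without the share over all regions, these counts are not a result about 5p. For siMena11a against siControl, gained regions numbered 0 with the stricter score, 150 and 16 within replicates 1 and 2 (replicate block) and 4 to 143 with 1 library left out. Lost ones numbered 1 with the stricter score, 1 in lists of equal length, 55 and 63 within replicates and 8 to 51. For siMena against siControl, gained regions numbered 2 in lists of equal length, 16 and 4 within replicates and 1 to 14. Lost ones numbered 5, 221 and 113, and 20 to 217, in the same order. For siControl against untreated, gained regions numbered 2 with the stricter score, 3 in lists of equal length, 55 and 25 within replicates and 9 to 44. Lost ones numbered 1 in lists of equal length, 167 and 223 within replicates and 28 to 162. For siMena11a against siMena, gained regions numbered 1 with the stricter score, 1 in lists of equal length, 312 and 66 within replicates and 10 to 310, and lost ones 12 and 4 within replicates and 2 to 8. A single library per arm lists more than 2 jointly by construction; the cause of the other changes was not tested. Depth is known only as background.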
